A study of Mus musculus with 6 samples.

Results

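The Slc2a genes encode the GLUT proteins, membrane carriers that let sugars and a few related small molecules cross a lipid bilayer down their gradient. In fat, GLUT4 (Slc2a4) waits in intracellular vesicles and moves to the cell surface after insulin, whereas GLUT1 (Slc2a1) sits at the surface of most cells and provides basal uptake. Other family members carry fructose, urate, dehydroascorbate or myo-inositol, so the family name does not by itself mean glucose. The 10 members described here are Slc2a1, Slc2a3, Slc2a4, Slc2a5, Slc2a6, Slc2a8, Slc2a9, Slc2a10, Slc2a12 and Slc2a13, taken by symbol from the 57180 genes of the count table.

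The tissue was iWAT, the subcutaneous fat of the groin, and every mouse was wild type with obesity induced by high-fat feeding. In the ADISSP group (3 libraries) the mice had received recombinant Adissp, a protein secreted by fat cells, at 68 nmol/kg each day over 33 days. The Control group (3 libraries) was on the same diet, and the labels state neither what the controls were given nor the age or sex of the animals. RNA was ribosome-depleted, all libraries are labelled batch 1 and biological triplicates, and their totals were 10357930 to 15658428 counts.

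Changes below are on the log2 scale, ADISSP relative to Control, from edgeR's quasi-likelihood test on counts, with p adjusted by the Benjamini-Hochberg method over 17320 tested genes, and "rose" or "fell" is used at an adjusted p under 0.05. Levels of a single gene are in CPM, counts scaled to library size with TMM factors, as mean ± SD with n = 3 per group, and levels of different genes are compared only in the deposited TPM, which are per length. Control 3 stood apart from the other controls, with lower lymphocyte and far higher skeletal muscle transcripts, so results that rest on it are given with and without it. Over the tested genes its log2 CPM correlated at 0.9576 with Control 1 and 0.9545 with Control 2. With ADISSP 1, 2 and 3 the correlations of Control 3 were 0.9506, 0.9553 and 0.9606, so it was about as close to those libraries. The scaling of the libraries also matters: on library totals the median gene lay -0.35 from its TMM value and on log2(TPM + 1) -0.55. The share of changed genes that were higher was 52.8% with TMM, 43.8% with upper quartile scaling, 21.1% on library totals and 11.8% on log2(TPM + 1).

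The insulin-responsive transporter Slc2a4 and the fructose transporter Slc2a5 rose in ADISSP, together with the intracellular transporters Slc2a8 and Slc2a12, while the myo-inositol transporter Slc2a13 and the lysosomal Slc2a6 fell. Slc2a1, Slc2a3, Slc2a9 and Slc2a10 did not pass the threshold. Thus 4 of 10 members rose and 2 fell, where 35.0% of all tested genes changed (18.5% higher and 16.5% lower). The median log2 fold change of the members was -0.24, against -0.01 over all tested genes. All 10 passed the filter on low counts, but Slc2a5 did so only through the ADISSP libraries, so its place among the tested genes already required a difference. The CPM ranges of Control and ADISSP were separate in 7 of the 10 members, against 49.8% of all tested genes. Leaving out Control 1, Control 2, ADISSP 1 or ADISSP 2 left 1 member lower, leaving out Control 3 gave 3, and with Control 3 as the only control 2 members were higher and 1 was lower. With log2(TPM + 1) 2 members were higher and 5 lower, and on library totals 4 were higher and 5 lower.

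**Figure D1:**
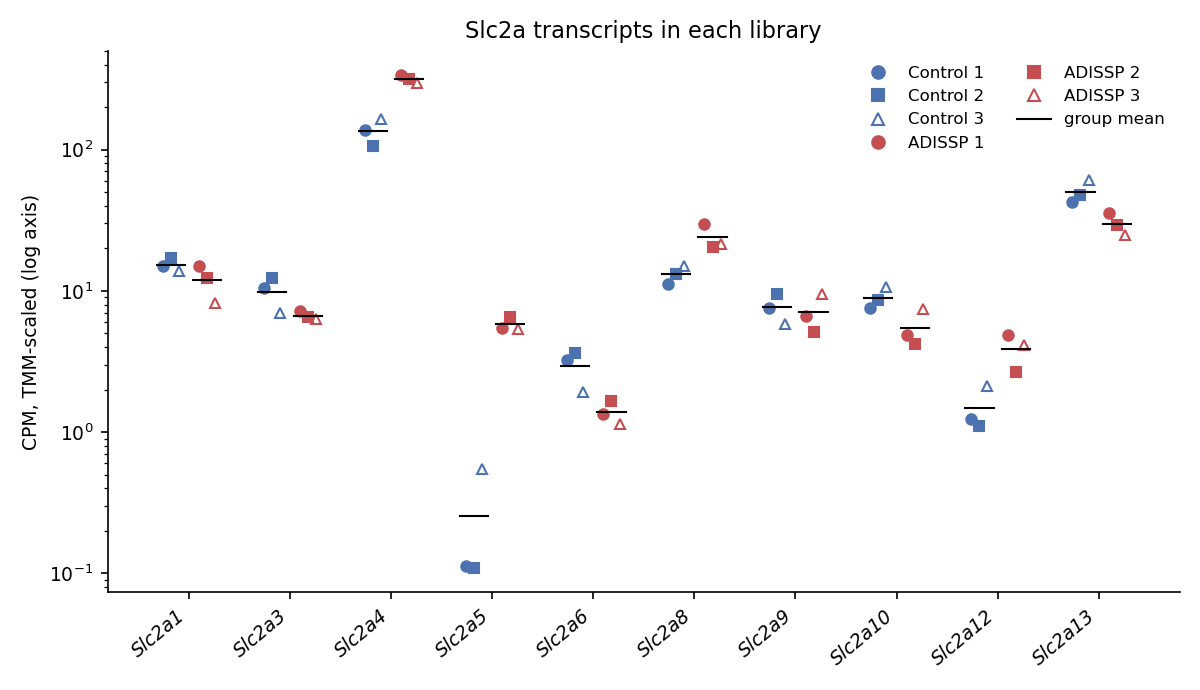
CPM (TMM-scaled, log axis) of the 10 Slc2a genes, in the order of their family numbers, with 1 symbol per library and a black line at each group mean. Slc2a4 lay between 106 and 164 CPM in Control and between 296 and 336 CPM in ADISSP, Slc2a5 moved from below 1 CPM to above 5 CPM, and Slc2a1, Slc2a3 and Slc2a9 overlapped between the groups.

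Per length, Slc2a4 was the dominant member of the family in every library, and its lead widened in ADISSP. In deposited TPM, Control 1, 2 and 3 held 170, 135 and 187, while ADISSP 1, 2 and 3 held 274, 244 and 251. Of the summed TPM of the 10 members, Slc2a4 made up 67.4%, 57.9% and 68.0% in Control 1, 2 and 3, against 79.7%, 82.3% and 81.2% in ADISSP 1, 2 and 3. The groups did not overlap, and the mean share went from 64.4% ± 5.70 to 81.0% ± 1.34 (SD, n = 3 per group; two-sided exact permutation test, p = 0.1, the smallest that 3 against 3 allows). This share does not depend on how libraries are scaled. The largest loss of share was that of Slc2a13, from 8.63%, 10.9% and 10.4% in Control to 3.49%, 3.20% and 2.83% in ADISSP, and the share of Slc2a1 went from 7.41% ± 1.80 to 2.98% ± 0.69. Slc2a8 held 6.79% ± 0.93 and 6.61% ± 0.96, with overlapping groups, and Slc2a5 went from 0.116% ± 0.099 to 1.52% ± 0.21.

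**Figure D2:**
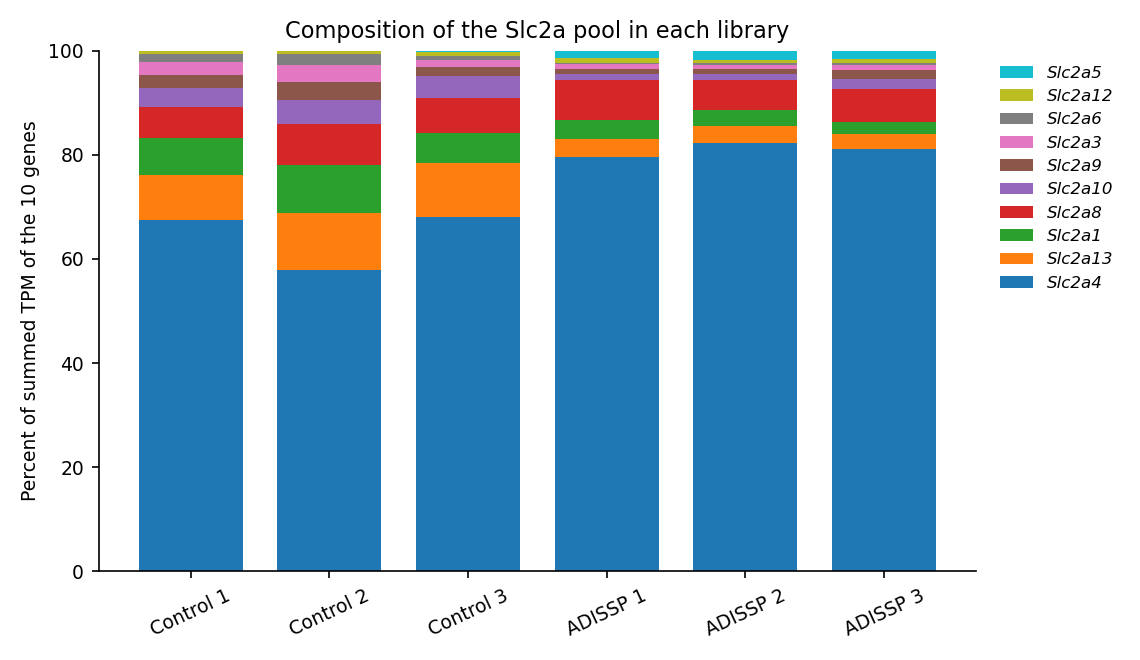
Stacked bars give the percent of the summed deposited TPM of the 10 Slc2a genes in each of the 6 libraries. Slc2a4 fills 57.9% to 68.0% of the Control bars and 79.7% to 82.3% of the ADISSP bars, and the Slc2a5 segment is visible only in ADISSP.

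The order below Slc2a4 also differed between the groups. By mean TPM the Control order was Slc2a4 (164), Slc2a13 (25.4), Slc2a1 (18.6), Slc2a8 (17.2), Slc2a10 (10.6), Slc2a9 (6.41), Slc2a3 (5.84), Slc2a6 (3.90), Slc2a12 (1.46) and Slc2a5 (0.307). Neighbours that overlapped in that order were Slc2a1 with Slc2a8, Slc2a9 with Slc2a3, and Slc2a3 with Slc2a6. In ADISSP the order was Slc2a4 (257), Slc2a8 (21.1), Slc2a13 (10.1), Slc2a1 (9.51), Slc2a5 (4.80), Slc2a10 (4.39), Slc2a9 (3.96), Slc2a12 (2.61), Slc2a3 (2.61) and Slc2a6 (1.21). There Slc2a8 stood clear below Slc2a4, Slc2a13 overlapped Slc2a1, and the run from Slc2a5 down to Slc2a3 overlapped from each neighbour to the next. Slc2a5, the lowest of all in Control, thus stood above 5 other members in ADISSP.

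Class I of the family holds the glucose carriers. Slc2a4 (ENSMUSG00000018566, chromosome 11, 69833365 to 69839014, minus strand, GRCm39) stood at 139, 106 and 164 CPM in Control 1, 2 and 3, against 336, 315 and 296 CPM in ADISSP 1, 2 and 3. Every ADISSP library lay above every Control library, and Control 3 was the highest control. The log2 fold change was 1.21 (SE 0.16, adjusted p = 6.25e-04), from 136 ± 29.5 to 316 ± 19.9 CPM. It stayed past the threshold in all 17 alternatives, from 0.65 on log2(TPM + 1) to 1.37 without Control 3. Skeletal muscle, which also uses GLUT4, was unevenly present: the summed CPM of 10 muscle genes were 191 in Control 1, 253 in Control 2 and 20950 in Control 3, with 9374 to 10600 across the ADISSP group. Against Control 3 alone, the control with the highest summed muscle CPM, the Slc2a4 change was 0.94. In that fit the lone control is assumed to vary as ADISSP does. Control 3 was not highest for every muscle gene. Of the 10, Myh1 and Myh2 rose and 8 did not pass, a share of 20% higher against 18.5% of all tested genes. Myh1 was at 11.5 CPM in Control 3 and 100.6 to 236.5 CPM in ADISSP, and Myh2 at 1.43 CPM and 16.5 to 95.1 CPM. The part of muscle RNA in the Slc2a4 values was not tested.

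Set against a gene of the fat cell itself, Slc2a4 was also higher. The log2 ratio of Slc2a4 to Adipoq counts, Adipoq being the fat cell hormone adiponectin, was -3.11, -3.62 and -3.38 for Control 1, 2 and 3, against -2.34, -2.45 and -2.71 for ADISSP 1, 2 and 3. All 3 ADISSP ratios were above all 3 Control ratios, a difference of 0.87 (two-sided exact permutation test, p = 0.1, the smallest possible). With the geometric mean of Adipoq, Plin1, Fabp4, Lipe and Cidec as reference the difference was 0.74. That list leaves out Lep, the leptin gene, which had 2252, 1982 and 2625 CPM in Control against 1622, 1326 and 2290 CPM in ADISSP. With Lep added, an alternative chosen after seeing the data, the difference was 0.89. In tissue, fewer cells of a type and less RNA per cell cannot be told apart.

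Slc2a1, the carrier of basal uptake (ENSMUSG00000028645, chromosome 4, 118965908 to 118995180, plus strand), had 14.9, 17.1 and 13.9 CPM in Control and 15.1, 12.2 and 8.16 CPM in ADISSP. ADISSP 1 lay among the controls and ADISSP 3 was the lowest library. Its change of -0.38 (SE 0.22, adjusted p = 0.212) did not pass, and it passed only on library totals (-0.73) and on TPM (-0.92 with a pseudocount of 1). Relative to Slc2a1, however, Slc2a4 was higher in every ADISSP library: the log2 TPM ratio was 3.22, 2.64 and 3.57 in Control against 4.49, 4.70 and 5.19 in ADISSP, a 3.13-fold difference (two-sided exact permutation test, p = 0.1, the smallest possible).

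Slc2a3, the high-affinity carrier of neurons and many blood cells (ENSMUSG00000003153, chromosome 6, 122704768 to 122778599, minus strand), had 10.5, 12.3 and 6.96 CPM in Control and 7.20, 6.51 and 6.32 CPM in ADISSP. Control 3 stood with the ADISSP libraries. The change of -0.57 (SE 0.23, adjusted p = 0.0789) did not pass with all libraries, passed in 6 of 17 alternatives, among them without Control 3 (-0.77, adjusted p = 0.00408) and was -0.06 against Control 3 alone (adjusted p = 0.911). Control 3 was also the control with the fewest B cell transcripts: the summed CPM of 7 B cell genes were 342 in Control 1, 401 in Control 2 and 76.7 in Control 3, with 3.88 to 6.53 across the ADISSP group. Their part in the Slc2a3 values was not tested.

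**Figure D3:**
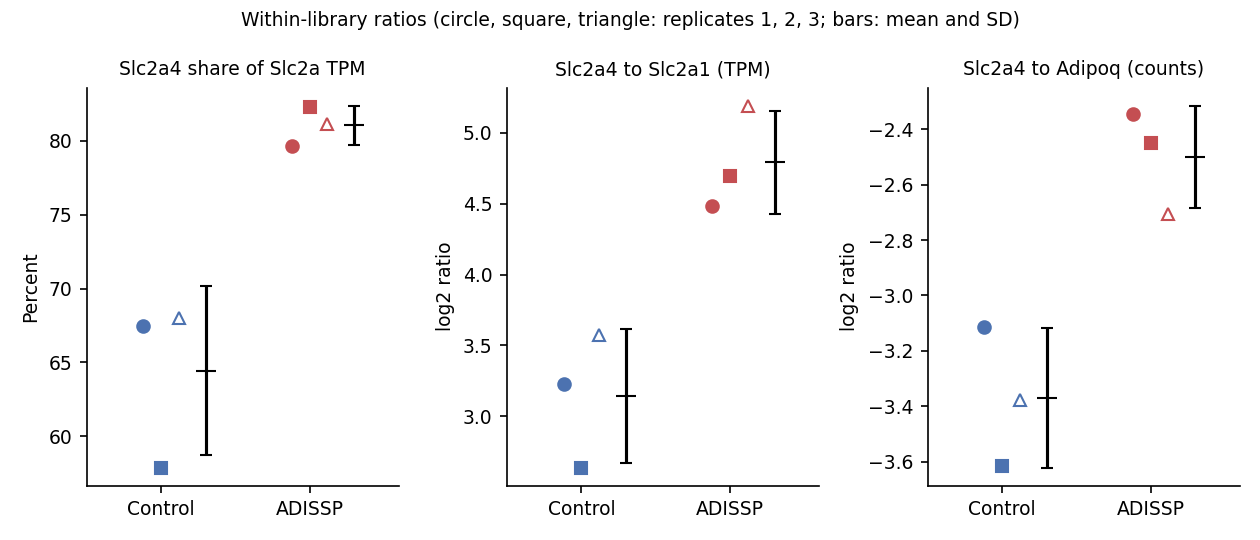
Each point is 1 library: the share of Slc2a4 in the summed Slc2a TPM (percent), the log2 TPM ratio of Slc2a4 to Slc2a1 and the log2 count ratio of Slc2a4 to Adipoq, with mean and SD per group at the side. In all 3 panels every ADISSP library lies above every Control library, and the axes do not start at 0.

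Class II holds the fructose carrier and the urate carrier, and the first showed the largest rise of the family. Slc2a5 (ENSMUSG00000028976, chromosome 4, 150203740 to 150228626, plus strand) encodes GLUT5, which carries fructose and is best known from the small intestine. Control 1, 2 and 3 had 2, 2 and 8 counts and ADISSP 1, 2 and 3 had 69, 59 and 76 counts, or 0.113, 0.110 and 0.546 CPM against 5.46, 6.51 and 5.39 CPM. The lowest ADISSP library was well above Control 3, the highest control. Its log2 fold change was 4.52 (SE 0.51, adjusted p = 2.64e-04), given as a description, since no Control library was above the filter cutoff of 0.676 CPM and the gene entered the test only through ADISSP. From summed counts of 12 and 204 the ratio was 24.0, with a 95% exact interval of 13.4 to 47.2 that covers counting error only. The value was 5.58 without Control 3, 3.37 against Control 3 alone and 2.17 on log2(TPM + 1), a scale that shrinks low genes.

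Promoter windows are shown for Slc2a5, Slc2a12 and Slc2a6, the called members with a log2 fold change of at least 1 in size that had an entry in the promoter table. Each is the 250 bases before the RefSeq transcription start in GRCm38.p6, a different build from that of the counts. Slc2a5 is chr4:150119094-150119343 (plus strand), Slc2a12 is chr10:22644761-22645010 (plus strand) and Slc2a6 is chr2:27027999-27028248 (minus strand, printed as transcribed). Capitals mark matches to CANNTG, the E-box.
Slc2a5: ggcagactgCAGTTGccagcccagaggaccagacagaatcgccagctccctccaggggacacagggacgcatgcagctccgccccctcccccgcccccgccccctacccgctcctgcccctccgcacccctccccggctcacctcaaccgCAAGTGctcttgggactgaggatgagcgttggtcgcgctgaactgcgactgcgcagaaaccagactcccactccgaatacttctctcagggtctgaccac
Slc2a12: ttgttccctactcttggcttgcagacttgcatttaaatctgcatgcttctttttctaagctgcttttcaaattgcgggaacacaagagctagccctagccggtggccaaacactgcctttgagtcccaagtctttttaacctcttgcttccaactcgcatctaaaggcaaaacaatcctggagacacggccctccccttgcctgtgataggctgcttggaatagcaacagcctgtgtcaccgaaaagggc
Slc2a6: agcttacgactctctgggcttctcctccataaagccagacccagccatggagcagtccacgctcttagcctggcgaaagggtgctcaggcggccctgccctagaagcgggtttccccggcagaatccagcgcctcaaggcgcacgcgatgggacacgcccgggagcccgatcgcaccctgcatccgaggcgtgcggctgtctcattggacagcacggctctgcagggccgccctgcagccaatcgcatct
The Slc2a5 window held 2 E-boxes, a motif present in 66.2% of 32851 such windows. On either strand none of the 3 windows held CTATTT (the core of the MEF2 motif, 11.0% of windows) or TGACG (cAMP element core, 17.8%). Nor did any, on either strand, hold AGGTCA (nuclear receptor motif, 14.02%) or ACGTG (1 form of the hypoxia element core, 16.6%). The form GCGTG was not searched. Their GC contents were 66.4% for Slc2a5, 48.8% for Slc2a12 and 65.2% for Slc2a6, against a median of 52.4% over all windows. The table had an entry for 8 of the 10 members. It had none for Slc2a3 and Slc2a4.

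Slc2a9 (ENSMUSG00000005107, chromosome 5, 38506616 to 38660486, minus strand) encodes GLUT9, known chiefly as a urate carrier. Its values of 7.53, 9.51 and 5.86 CPM in Control and 6.64, 5.07 and 9.44 CPM in ADISSP overlapped fully. With a change of -0.11 (SE 0.27, adjusted p = 0.787) it passed in 0 of 17 alternatives, and its direction turned in those without Control 2 (0.08), without ADISSP 2 (0.09) and against Control 3 alone (0.28).

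Class III members mostly reside on internal membranes. Slc2a8 (ENSMUSG00000026791, chromosome 2, 32863002 to 32872095, minus strand), an intracellular hexose carrier, had 11.2, 13.1 and 14.9 CPM in Control and 29.7, 20.3 and 21.6 CPM in ADISSP. No ADISSP library overlapped the controls in CPM, although in TPM ADISSP 2 (17.1) lay among them (14.9 to 18.5). It rose by 0.87 (SE 0.18, adjusted p = 0.00627). The call was kept whichever single library was left out, and was lost on log2(TPM + 1) (0.27, adjusted p = 0.249) and against Control 3 alone (0.68, adjusted p = 0.0686).

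Slc2a12 (ENSMUSG00000037490, chromosome 10, 22520910 to 22580184, plus strand), a glucose carrier found in muscle and fat, had 22, 20 and 31 counts in Control against 62, 24 and 58 counts in ADISSP, or 1.25, 1.10 and 2.11 CPM against 4.90, 2.65 and 4.12 CPM. The groups did not overlap, though ADISSP 2 and Control 3 lay close. Its rise of 1.40 (SE 0.36, adjusted p = 0.0164) lost its call without Control 1, Control 2, ADISSP 1 or ADISSP 3 (adjusted p up to 0.0654), against Control 3 alone (0.89, adjusted p = 0.219) and on log2(TPM + 1) (0.54, adjusted p = 0.143). The last 407 bases of the gene overlap Tbpl1 on the other strand, which had 717 counts in Control and 421 in ADISSP, and since the strand setting of the counting is not given, reads there are uncertain.

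Slc2a13 (ENSMUSG00000036298, chromosome 15, 91151899 to 91457464, minus strand) encodes a proton-coupled myo-inositol carrier studied mostly in the brain. Values were 42.7, 47.9 and 60.7 CPM in Control and 35.4, 29.4 and 24.8 CPM in ADISSP. Control 3 was the highest library and every ADISSP library lay below every control. The fall of 0.76 on the log2 scale (log2 fold change -0.76, SE 0.17, adjusted p = 0.00937) held in all 17 alternatives, from -0.60 without Control 3 to -1.33 on log2(TPM + 0.1). Among cell markers 7 of 7 for macrophages and 4 of 6 for fibroblasts and fat cell progenitors fell, against 16.5% of all tested genes. The part of these cells in the Slc2a13 values was not tested.

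Slc2a6 (ENSMUSG00000036067, chromosome 2, 26911375 to 26918010, minus strand) encodes a lysosomal carrier that in mouse is abundant in activated macrophages. It had 57, 66 and 28 counts in Control against 17, 15 and 16 counts in ADISSP, or 3.23, 3.63 and 1.91 CPM against 1.34, 1.65 and 1.14 CPM. Control 3 lay just above the ADISSP libraries. The log2 fold change was -1.10 (SE 0.35, adjusted p = 0.0368), a call that needed every library other than Control 3 (adjusted p 0.0623 without ADISSP 2 to 0.138 without Control 2) and against Control 3 alone (-0.49, adjusted p = 0.605). All 7 macrophage markers fell as well, against 16.5% of all tested genes. The 7 markers summed to 702 to 797 CPM in Control and 317 to 432 CPM in ADISSP. Among them Adgre1, the F4/80 gene, was at -0.97 (adjusted p = 7.92e-04). The part of macrophage and lymphocyte RNA in the Slc2a6 values was not tested.

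Slc2a10 (ENSMUSG00000027661, chromosome 2, 165345707 to 165361837, plus strand), a carrier of dehydroascorbate whose human form is mutated in arterial tortuosity syndrome, had 7.59, 8.68 and 10.6 CPM in Control and 4.90, 4.19 and 7.38 CPM in ADISSP. The groups did not overlap, with ADISSP 3 just under Control 1. The change of -0.69 (SE 0.25, adjusted p = 0.0575) did not pass, and it passed in 7 of 17 alternatives, among them upper quartile scaling (-0.77, adjusted p = 0.0398) and without ADISSP 3 (-0.96, adjusted p = 0.0274). Markers of fibroblasts and fat cell progenitors had a median change of -1.21, with 4 of 6 lower, against 16.5% of all tested genes. The part of these cells in the Slc2a10 values was not tested.

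Of the family's members outside the 10, the liver and beta cell carrier Slc2a2 had 16, 7 and 15 counts in Control against 3, 2 and 3 counts in ADISSP, too few to be tested. The ratio of Control to ADISSP was 3.37 (95% exact interval 1.55 to 8.35, counting error only). Slc2a7 had 0 counts in every library, which allows at most 0.165 to 0.331 CPM per library.

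**Figure D4:**
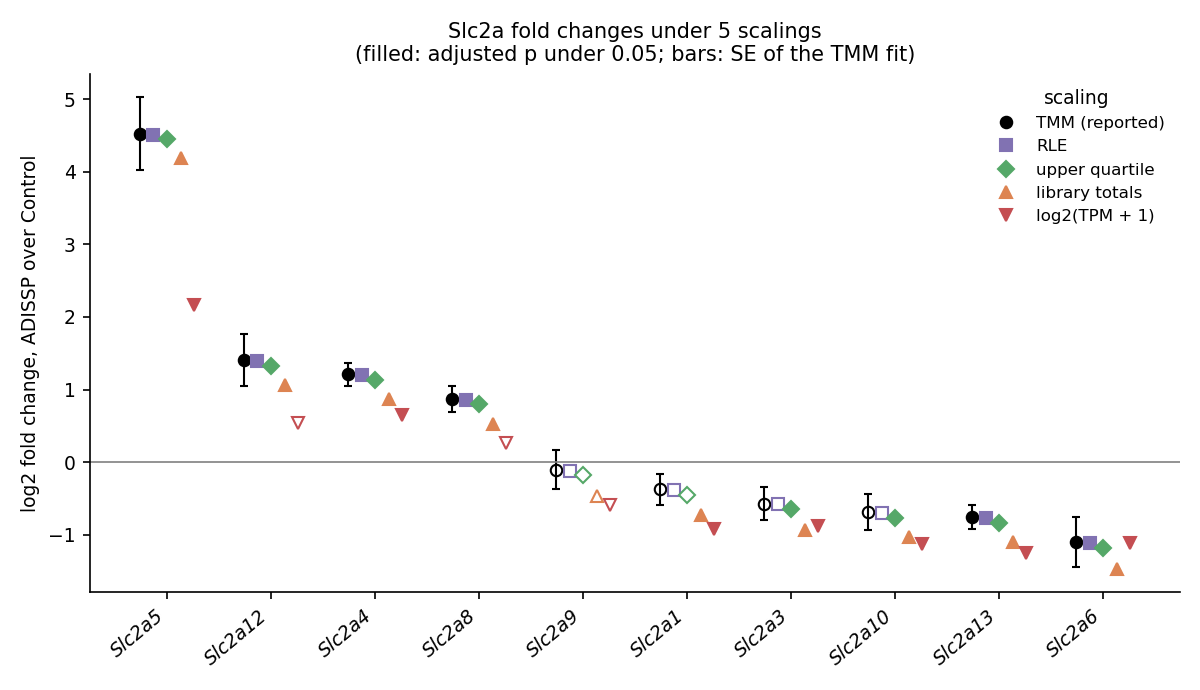
Log2 fold changes of the 10 Slc2a genes under 5 scalings, filled where the adjusted p was under 0.05, with the SE of the TMM fit as bars. Slc2a4, Slc2a5, Slc2a6 and Slc2a13 are filled under all 5, Slc2a8 and Slc2a12 are open on log2(TPM + 1), and no member changes sign.

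Scaling moved every member down with the whole transcriptome. Relative to the median gene of each scaling, Slc2a4 stood at 1.22 on library totals and 1.20 on log2(TPM + 1), Slc2a13 at -0.75 and -0.71, and Slc2a1 at -0.38 and -0.37. Slc2a8 stood at 0.88 and 0.81 in the same order. The distance of these members from the typical gene therefore differed little between scalings, and the low genes Slc2a5 (4.54 and 2.72) and Slc2a6 (-1.12 and -0.56) were pulled toward 0 by the pseudocount.

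Genes of the machinery that holds and delivers GLUT4 vesicles changed in both directions, and the share that changed was no higher than over all genes. Of 39 trafficking genes 7 rose and 5 fell, which is 30.8% against 35.0% of all tested genes, with a median of 0.18. Ralgapa2, a subunit of the complex that restrains the vesicle-tethering GTPase RalA, rose by 0.71 (adjusted p = 0.00249), and was at 0.12 on log2(TPM + 1) (adjusted p = 0.358). Those that fell were Doc2b, a calcium sensor of vesicle fusion (-1.74, adjusted p = 0.00232), Tbc1d1, a Rab brake best known in muscle (-0.66), Stxbp3, which binds the fusion protein syntaxin 4 (-0.49), the adaptor Cbl (-0.48) and the clathrin heavy chain Cltc (-0.37). Cbl and Cltc lost their calls without Control 1 or any 1 ADISSP library (adjusted p up to 0.109). Doc2b stood at 3.51, 4.01 and 2.93 CPM in Control and 1.03, 1.10 and 0.994 CPM in ADISSP, with no overlap. Tbc1d4, the Rab brake that insulin releases in fat cells, named here after its value was seen, rose by 0.32 (adjusted p = 0.0309), but scaling to library totals gave -0.04 and log2(TPM + 1) gave -0.26, and missed the threshold when any library but Control 3 was left out (adjusted p up to 0.102). Trarg1, a fat cell regulator of GLUT4 vesicles also named after its value was seen, had 556, 601 and 925 CPM in Control and 911, 855 and 919 CPM in ADISSP, with Control 3 among the ADISSP libraries, and its change of 0.37 (adjusted p = 0.160) passed only without Control 3 (0.63). The list's count was 24 without Control 3, 4 to 7 without any other single library and 1 against Control 3 alone (Ralgapa2 excepted, every gene named above as changed lost its call there). On library totals 1 gene was higher and 15 lower, and the median turned to -0.17 there and to -0.40 on log2(TPM + 1).

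**Figure D5:**
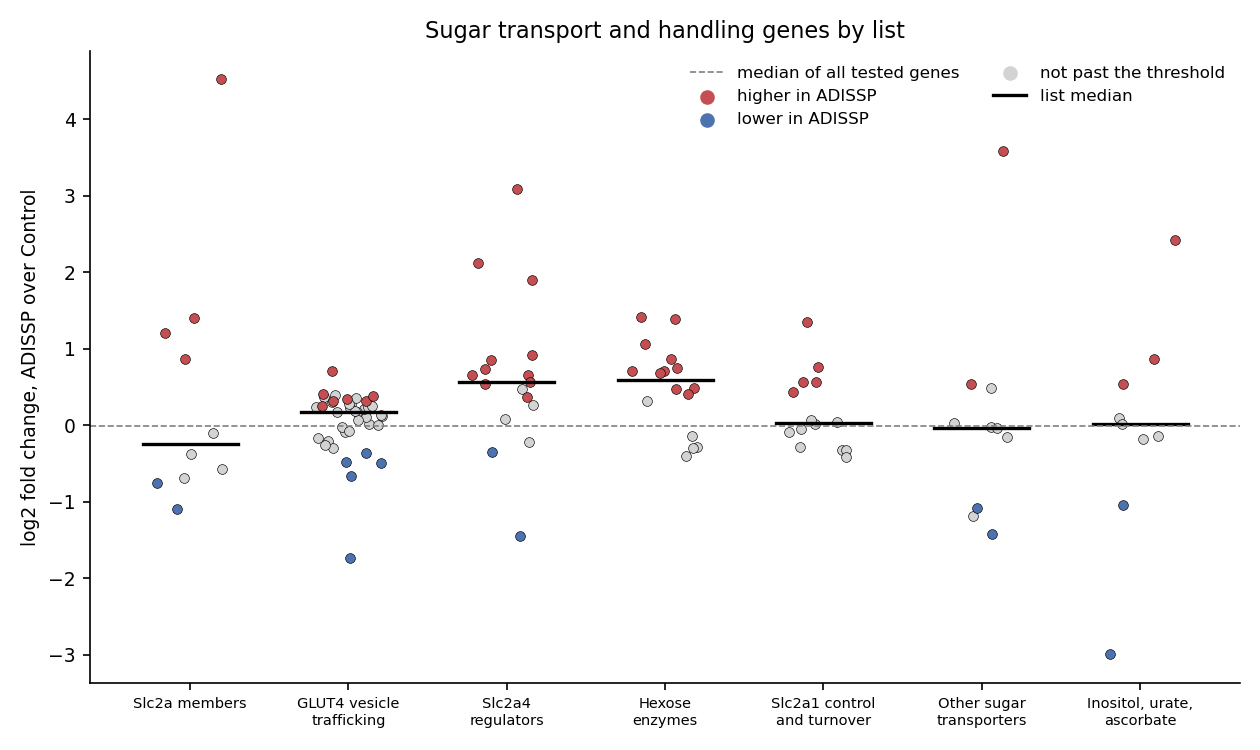
Each point is 1 tested gene of 7 lists, by log2 fold change (ADISSP over Control), coloured where it rose or fell and grey where it did not pass, with a black line at the list median and a dashed line at the median of all tested genes. The hexose enzyme and Slc2a4 regulator lists have medians of 0.59 and 0.56, and the trafficking list has 0.18.

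Transcriptional regulators of Slc2a4 changed in larger numbers. Of 17, 11 rose and 2 fell (76.5% against 35.0% of all tested genes), with a median of 0.56. The coactivator Ppargc1a rose by 3.09 (adjusted p = 1.59e-06), the carbohydrate-response factor Mlxipl, known as ChREBP, by 1.90 (adjusted p = 1.53e-04), and, named after their values were seen, Cebpa by 0.74 and Pparg by 0.66. Mlxipl stood at 67.3, 65.1 and 104 CPM in Control and 309, 289 and 285 CPM in ADISSP, Control 3 being the highest control. Mef2c, a MEF2 factor that binds the Slc2a4 promoter in muscle, fell by 1.45 (log2 fold change -1.45, adjusted p = 3.56e-05), and the mediator subunit Med13 was at -0.35 (adjusted p = 0.0412), a call that missed the threshold when any library but Control 3 was left out (up to 0.148). Mef2c is also expressed in B cells and endothelium. Markers of these cells fell in all 7 and in 2 of 5 cases, against 16.5% of all tested genes. The part of these cells in the fall of Mef2c was not tested. On log2(TPM + 1) 4 were higher and 5 lower, the median was -0.02 and Cebpa and Pparg no longer passed, and against Control 3 alone 8 genes passed.

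Enzymes that act on hexoses after entry were mostly higher with TMM scaling. Of 16 tested, 11 rose and 0 fell (68.8% higher against 18.5% of all tested genes), with a median of 0.59. Gpi1, which converts glucose 6-phosphate to fructose 6-phosphate, rose by 1.42 (adjusted p = 2.32e-04), the hexokinase Hk1 by 1.07 (adjusted p = 3.06e-04) and G6pc3, a glucose 6-phosphate phosphatase, by 0.87 (adjusted p = 5.67e-04). The 5 that did not pass included Hk3, a hexokinase of white blood cells, at -0.40 (adjusted p = 0.144, and -0.75 with adjusted p = 0.0127 on library totals; named after its value was seen). Hk2, the insulin-responsive hexokinase of fat and muscle, also named after its value was seen, had 154, 145 and 252 CPM in Control and 506, 500.0 and 439 CPM in ADISSP (1.39, adjusted p = 0.00200). The count was 6 without Control 1, 7 without Control 2, ADISSP 1 or ADISSP 2, and 6 against Control 3 alone. On library totals 5 were higher and 4 lower, and on log2(TPM + 1) 4 were higher and 4 lower, with a median of 0.02.

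Beside the fructose carrier Slc2a5, the first fructose enzymes and the polyol route were measured, 4 genes of the same list named after their values were seen. Ketohexokinase, Khk, had 5.04, 6.27 and 3.89 CPM in Control and 8.15, 9.15 and 7.66 CPM in ADISSP (0.71, adjusted p = 0.0343). Tkfc, the triose kinase of the fructose route, rose by 0.76 (adjusted p = 0.0108). Aldose reductase Akr1b1 and sorbitol dehydrogenase Sord, which make fructose from glucose, rose by 0.41 and 0.49 (adjusted p = 0.0217 and 0.0151). None of the 4 passed on library totals or log2(TPM + 1), and on the latter Akr1b1 and Sord were at -0.17 and -0.08. Against Control 3 alone only Khk passed (1.09, adjusted p = 0.0246). Without Control 1 the calls of Khk, Akr1b1 and Sord were lost (adjusted p 0.0983, 0.0778 and 0.0597). Khk was also lost without any 1 ADISSP library (up to 0.0969), Akr1b1 without Control 2 or ADISSP 1 (up to 0.0804) and Sord without Control 2 or ADISSP 2 (up to 0.0548).

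Genes that set the level and recycling of GLUT1 included sensors of oxygen and sugar. Of 14, 5 rose and 0 fell, or 35.7% against 35.0% of all tested genes, with a median of 0.03. The oxygen sensor Egln1 rose by 1.35 (adjusted p = 8.57e-05), the hypoxia factor Epas1 by 0.56 and Gipc1, a GLUT1 anchor, by 0.56. Egln1 held 69.5, 67.2 and 89.1 CPM in Control and 186, 199 and 189 CPM in ADISSP, without overlap. On log2(TPM + 1) Epas1 and Gipc1 were at -0.02 and -0.01, and neither passed on library totals or against Control 3 alone (adjusted p up to 0.202). Txnip, which promotes the uptake of GLUT1 and GLUT4 into the cell and was named after its value was seen, rose by 0.43 (adjusted p = 0.0333) but was -0.15 on log2(TPM + 1) and lost its call without Control 1, Control 2, ADISSP 2 or ADISSP 3 (adjusted p up to 0.141). The list's count was 3 without Control 2, ADISSP 2 or ADISSP 3 and 2 against Control 3 alone. On library totals 1 was higher and 8 lower.

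Other sugar transporters were mostly low. Of 19 listed, 10 were tested, 2 rose and 2 fell, with a median of -0.03, and the 4 of 10 changed were close to the 35.0% of all tested genes. Mfsd4b1, a sodium-dependent glucose carrier gene of mouse, went from 0.396, 0.879 and 0.887 CPM in Control to 10.8, 7.50 and 7.74 CPM in ADISSP (3.59, SE 0.34, adjusted p = 1.06e-04). The direction was the same in every alternative. With 7, 16 and 13 counts in Control, Mfsd4b1 passed the low-count filter only with the ADISSP libraries. These values, and its place among the 2 that rose, are therefore a description. Its relative Mfsd4b4 was at 0.54 (adjusted p = 0.0354), lost without any single library other than Control 3 (up to 0.134) and at -0.03 on log2(TPM + 1), and counts of such related genes are uncertain where they share reads. Slc37a2, a sugar-phosphate exchanger of macrophages, fell by 1.09 (log2 fold change -1.09, adjusted p = 0.00320), as macrophage markers did. The part of macrophage RNA in the Slc37a2 values was not tested. Slc37a1, another exchanger, also fell (-1.42, adjusted p = 0.0409; chosen after its value was seen) and had 3.96 CPM in Control 3 against 10.4 and 13.8 CPM in Control 1 and 2 and was -0.18 against Control 3 alone (adjusted p = 0.816), and its call was lost when any library but Control 3 was left out (up to 0.139). On library totals 1 of the list was higher and 6 lower. The list's count was 2 without Control 1, Control 2, ADISSP 1 or ADISSP 3. The sodium-coupled glucose carriers Slc5a1 and Slc5a2, named after their values were seen, were at or below 0.106 CPM on average in either group.

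For the substrates other than glucose, handling genes were mixed. Of 15 genes of inositol, urate and ascorbate handling 9 were tested, 3 rose and 2 fell (55.6% changed against 35.0% of all tested genes), with a median of 0.02. Impa2, an inositol monophosphatase, rose from 5.55, 7.09 and 5.59 CPM to 33.5, 34.7 and 29.7 CPM (2.42, SE 0.15, adjusted p = 1.32e-05). The sodium-coupled myo-inositol carrier Slc5a3, named after its value was seen, had 459, 393 and 454 CPM in Control and 443, 364 and 529 CPM in ADISSP, with overlapping groups and a change of 0.03 (SE 0.15, adjusted p = 0.884), or -0.56 on log2(TPM + 1), where it passed as lower. The log2 fold changes of the myo-inositol carriers Slc2a13 and Slc5a3 were thus -0.76 and 0.03, and the difference between them was not tested. Of urate genes, the exporter Abcg2 fell by 1.05 (log2 fold change -1.05, adjusted p = 0.00214) while Xdh, which makes urate, rose by 0.54 (adjusted p = 0.0172, named after its value was seen), a call lost without Control 1, Control 2 or ADISSP 1 (up to 0.0603) and at -0.05 on log2(TPM + 1). The urate oxidase Uox had 48, 27 and 62 counts in Control against 1, 6 and 5 counts in ADISSP, and it passed the low-count filter only through Control, so its place among the genes that fell (log2 fold change -2.99) already required a difference. On library totals 2 of the list were higher and 4 lower. The dehydroascorbate reductase Gsto1 rose by 0.87 (adjusted p = 7.77e-04).

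The genes whose profiles over the 6 libraries were closest to a member's were found by the root mean square difference of centred log2 CPM, among 9554 protein-coding genes with at least 10 CPM on average. Closest to Slc2a4 were Bckdhb, Fam13a, Gstm4, Clpb and Mrpl55, at 0.0488 to 0.0643. Slc2a1 was nearest to Alpk1, Lilrb4b, Jak2, Chsy1 and Dph6 (0.0951 to 0.132), and Slc2a12 to Tarsl2, Cisd1, Nmnat1, Gstm4 and Mrps21 (0.164 to 0.203). Slc2a5 and Slc2a13, added after their values were seen, were nearest to Acacb, Pdk4, Acadvl and Plin5 (0.0918 to 0.112) and to C3ar1, Ccl9, Ccl11, Ubd and Adgra2 (0.0747 to 0.134). A pseudocount of 0.5 CPM was added before the log, which shrinks the contrast of Slc2a5, so its nearest genes had log2 fold changes of only 2.92 to 3.13.

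The tissue label was checked against markers. All 6 fat cell markers were tested, 2 rose and none fell, where 18.5% of all tested genes rose and 16.5% fell. The fat cell markers summed to 11990 to 16170 CPM in Control and 16580 to 18790 CPM in ADISSP. The brown fat marker Ucp1, the uncoupling protein, was at 42.1, 61.4 and 94.2 CPM in Control and 3126, 3302 and 2774 CPM in ADISSP, and all 6 brown fat markers rose. The muscle gene Acta1 had 13.5, 12.4 and 1396 CPM in Control and 553 to 640 CPM in ADISSP. The B cell gene Ms4a1 had 60.2, 63.9 and 12.96 CPM in Control and 0.158 to 0.662 CPM in ADISSP. The endothelial gene Pecam1 fell by 0.71 (log2 fold change -0.71, adjusted p = 0.00383). Of the 5 endothelial markers 2 fell and 3 did not pass, with a median of -0.27. The epithelial gene Epcam was at or below 0.566 CPM in every library. Of 6 epithelial markers only Cdh1 was tested, named after its value was seen. Cdh1 had 1.075, 1.374 and 1.227 CPM in Control and 4.271, 1.654 and 0.497 CPM in ADISSP (0.80, adjusted p = 0.377).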

How the data were processed

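Total RNA of inguinal fat was sequenced after ribosomal RNA depletion. STAR and featureCounts were used with the mm39 (GRCm39) build, per the submitters' processing notes, with versions, annotation release and strand setting not given in the sources used here. Raw counts deposited by the authors (57180 genes) were the basis of the main tests. The deposited TPM and FPKM (23524 genes) were computed by the authors, and TPM was used for levels between genes and as an alternative, FPKM as an alternative for shares. No per-sample column was left unmapped (0).

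Counts were filtered with filterByExpr (minimum count 10), leaving 17320 genes, scaled with TMM and fitted with edgeR 4.0.16 (R 4.3.3) by the quasi-likelihood test, ADISSP against Control, with Benjamini-Hochberg adjustment at 0.05. limma 3.58.1, DESeq2 1.42.0, other scalings and filters, the replicate block, Control 3 as the only control and each library left out were alternatives. Single ratios and shares used scipy 1.17.1. On simulated counts with dispersion 0.05 the test recovered 37.8% of genes changed by a log2 of 1 and 97.9% of those changed by 2. Count intervals and floors (3 counts) cover counting error only. Where triplicates come from separate animals is not stated beyond the label biological, so p-values measure the spread between these libraries.

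Members and gene lists were chosen with earlier results of these data known. The text names all 10 members, the 3 genes of each list with the smallest p, genes that changed against the majority of their list, defining markers and the nearest profiles of Slc2a4, Slc2a1 and Slc2a12; other genes are said to be named after their values were seen. Promoter windows are from RefSeq on GRCm38.p6, and protein sequences were not used here.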

Additional observations from a re-analysis of the deposited data

How the results depend on the processing

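Across 17 alternatives, Slc2a4 and Slc2a13 kept direction and call, and Slc2a5, which entered the test only through ADISSP, kept its direction; the other calls among the members rested on single libraries or on scaling, as given with each. Changed genes numbered 11004 on log2(TPM + 1), 10872 on log2(TPM + 0.1) and 3190 with Control 3 as the only control, and 3823 to 8517 with 1 library left out; the cause was not tested. Members changed were 3 against Control 3 alone and 4 to 7 with 1 library left out. Members higher were 2 with either TPM pseudocount and against Control 3 alone, and 3 to 4 with 1 library left out. Members lower were 4 with upper quartile scaling and with no filter, 5 on library totals and with either TPM pseudocount, 1 against Control 3 alone, and 1 to 3 with 1 library left out. With either TPM pseudocount the changed genes were 25 for GLUT4 trafficking, 10 for Slc2a1 turnover, 8 for other sugar transporters and 9 for inositol, urate and ascorbate handling; on library totals they were 9 for Slc2a1 turnover and 7 for other sugar transporters. Against Control 3 alone they were 1 for GLUT4 trafficking, 8 for Slc2a4 regulators, 6 for hexose enzymes, 2 for Slc2a1 turnover and 2 for other sugar transporters. With 1 library left out they were 4 to 24 for GLUT4 trafficking, 9 to 16 for Slc2a4 regulators, 6 to 12 for hexose enzymes, 3 to 5 for Slc2a1 turnover, 2 to 6 for other sugar transporters and 4 to 5 for inositol, urate and ascorbate handling. The rise in Slc2a4 share was 21.8 points from counts not taken per length, against 16.6, and 13.3 to 18.4 points with 1 library left out. The direction turned on log2(TPM + 1) and log2(TPM + 0.1) for Epas1 (-0.016 and -0.016), Gipc1 (-0.009 and -0.009), Mfsd4b4 (-0.034 and -0.039), Tbc1d4 (-0.261 and -0.266), Sord (-0.077 and -0.077), Akr1b1 (-0.171 and -0.176), Txnip (-0.15 and -0.151), Xdh (-0.049 and -0.05) and Slc5a3 (-0.556 and -0.56), and for Tbc1d4 on library totals (-0.036). Of named genes that were not called, Trarg1 turned with either TPM pseudocount (-0.176) and against Control 3 alone (-0.05), and Slc5a3 also turned with upper quartile scaling (-0.045), on library totals (-0.314), against Control 3 alone (-0.029) and without Control 2 (-0.039) or ADISSP 3 (-0.095). Same-numbered libraries had deviations correlated at 0.048, 0.089 and 0.055, under 0.1, so the numbers were not taken as pairs, although each library correlated best with its own number. The replicate block gave 5541 changed genes, 7 changed members (Slc2a10 added, adjusted p = 0.0358) and 2 other sugar transporters. Low counts limit Slc2a5, Slc2a6 and Slc2a12.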
